A study of Homo sapiens with 15 samples.

Results

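YBX1, YBX3 and CARHSP1 are genes whose proteins carry a cold-shock domain, a small fold that binds single-stranded RNA and DNA. They were chosen by their symbol, which both deposited expression tables list in every group, and they are 3 of the 12995 genes measured. RNA was measured in 15 libraries of human oral cell lines, in 5 groups of 3. OKF6, derived from normal oral epithelium, carries no construct by its labels. SCC15 and SCC25 are oral squamous carcinoma lines that carried a doxycycline-inducible CRISPR-Cas9 system directed at YBX1. SCC15 +YBX1 and SCC25 +YBX1 received no doxycycline, and SCC15 –YBX1 and SCC25 –YBX1 received 1 µg/ml. According to the study's methods, cells that had taken up both the Cas9 and the guide vectors were sorted and grown on. The share of edited cells was not measured here. The comparison was taken 3 days after induction. Loss of YBX1 and exposure to doxycycline cannot be told apart in this design, since no library received the drug without a YBX1 guide. Both cancer lines carried the system directed at YBX1, also without doxycycline, and OKF6 did not. A difference of either line from OKF6, that of YBX1 included, therefore cannot be told apart from one of the construct or the sorting. The medium differed too, since only SCC15 was grown in serum (DMEM) and the other lines in serum-free keratinocyte medium, and a difference of SCC15 from them cannot be told apart from one of medium. Nothing in the labels says that the 3 libraries of a group came from separate cultures, so the p-values measure the spread between these libraries, which may be technical.

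YBX1, also called Y-box binding protein, packages messenger RNA in the cytoplasm, influences its stability and translation, and can enter the nucleus, where it was first described as a protein that binds the Y-box of promoters. The Y-box is an inverted CCAAT element. YBX3 is the closest widely expressed relative of YBX1 and shares its role in messenger ribonucleoprotein particles. CARHSP1 is a small calcium-regulated heat-stable protein that binds and stabilises certain messenger RNAs, TNF among them. YBX1 is phosphorylated by AKT and RSK kinases, and in squamous cancers it has been studied as a factor in growth and invasion.

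The promoters of YBX1 and YBX3 are shown here because they hold the letters CCAAT on either strand. The Y-box is an inverted CCAAT element, but only these letters were sought, in both directions, and no longer Y-box sequence was. Each sequence covers the 250 bases before the gene's start in RefSeq (GRCh38.p14), read 5′ to 3′ along the gene's strand, and the capitals mark each CCAAT or its reverse complement ATTGG. The YBX1 window is chr1:42682168-42682417 on the plus strand, and the YBX3 window is chr12:10723324-10723573 on the minus strand.
YBX1: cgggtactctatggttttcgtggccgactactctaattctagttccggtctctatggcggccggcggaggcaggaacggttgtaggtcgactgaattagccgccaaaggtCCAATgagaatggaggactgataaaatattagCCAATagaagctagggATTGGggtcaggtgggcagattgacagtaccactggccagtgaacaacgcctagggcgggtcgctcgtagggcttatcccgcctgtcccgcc
YBX3: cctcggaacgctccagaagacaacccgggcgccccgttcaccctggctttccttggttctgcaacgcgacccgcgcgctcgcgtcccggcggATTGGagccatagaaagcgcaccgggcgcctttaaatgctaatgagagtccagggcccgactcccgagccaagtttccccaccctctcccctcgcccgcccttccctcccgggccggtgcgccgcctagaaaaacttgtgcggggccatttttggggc
The YBX1 window held 3 such elements, beginning 140, 108 and 92 bases before the start. The YBX3 window held 1, beginning 158 bases before the start. Neither element was found in any of the 5 RefSeq start windows of CARHSP1, which says no more than that these letters are not in those windows. Of 35116 promoter windows of the same length, 32% held the element on either strand. The windows of YBX1 and YBX3 had a GC content of 55.2% and 66%, against a median of 58% over all windows. All 3 genes were matched to this table.

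In the GENCODE annotation on hg38, YBX1 (ENSG00000065978) lies on chromosome 1 from 42682418 to 42703805 on the plus strand, with 8 exons in its canonical transcript. YBX3 (ENSG00000060138) lies on chromosome 12 from 10699089 to 10723323 on the minus strand, with 10 exons. CARHSP1 (ENSG00000153048) lies on chromosome 16 from 8852942 to 8869012 on the minus strand, with 4 exons. The libraries read the 3′ end of each messenger RNA. They count transcripts and do not read the edited site or the protein. YBX1 has 10 annotated pseudogenes and YBX3 has 1, none of them listed in the tables. All 86 pieces of 75 bases taken from the last 500 bases of each of the 3 transcripts mapped best to the gene itself and nowhere else as well. CARHSP1 overlaps PMM2 on the opposite strand, and the strand setting of the authors' counting is not given in the sources used here, so reads of the 2 genes may not be fully separated.

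Between 4075290 and 6118501 reads were counted per library, and a single read was worth 0.138 to 0.226 CPM, the unit of counts scaled to a common library total. The first OKF6 library stood apart from the other OKF6 libraries, its read counts giving a chi-square over degrees of freedom of 79.2 and 80.8 against them, where the others gave 26.1 between each other. The first SCC15 –YBX1 library likewise gave 28.6 and 28.3 against the others of its group, where those gave 3.99. The second SCC25 –YBX1 library had 16.2% of its reads in its 10 most abundant genes, the highest of the 15, where the lowest had 8.43%. The summed level of 12 squamous epithelial markers was between 28591 and 39600 CPM in OKF6 and between 12314 and 31599 CPM in the SCC25 libraries. It was between 92.9 and 126 CPM in the SCC15 libraries, where all 12 markers were lower than in either other line (limma, adjusted p under 0.05), so the SCC15 libraries hold little of the RNA that defines squamous epithelium. In bulk samples fewer cells of a type and less RNA per cell cannot be told apart.

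The mean level of YBX1 messenger RNA was highest in OKF6, followed by SCC25 +YBX1, SCC15 +YBX1, SCC25 –YBX1 and SCC15 –YBX1. SCC25 –YBX1 overlapped with both of its neighbours in that order. In OKF6 its level was 6.76, 8.15 and 8.37 log2 CPM in replicates 1 to 3. In SCC25 +YBX1 it was 6.74, 6.31 and 6.62 log2 CPM, and in SCC15 +YBX1 5.11, 5.56 and 6.00 log2 CPM. These 3 groups did not overlap, although the first OKF6 library lay only just above the highest SCC25 +YBX1 library. On the linear scale the means were 241 ± 117 CPM in OKF6, 94.7 ± 14.2 CPM in SCC25 +YBX1 and 48.5 ± 14.7 CPM in SCC15 +YBX1 (SD, n = 3 each), which puts SCC25 +YBX1 at 39.2% and SCC15 +YBX1 at 20.1% of the OKF6 mean.

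**Figure D1:**
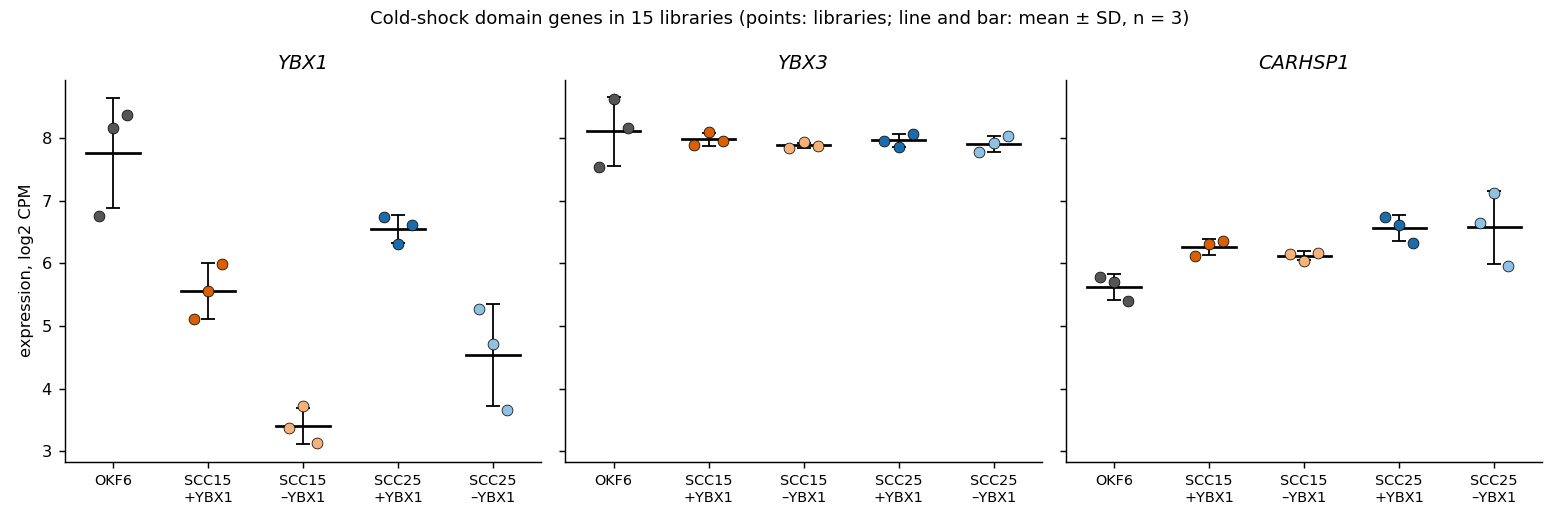
Expression of YBX1, YBX3 and CARHSP1 in log2 CPM (y axis) in the 5 groups (x axis), with 1 point per library and the mean ± SD of the 3 libraries. YBX1 steps down from OKF6 to SCC25 to SCC15 and again with induction in each cancer line, YBX3 lies near 8 in every group, and CARHSP1 is lowest in OKF6.

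YBX1 fell by 2.21 on the log2 scale in SCC15 against OKF6 (SE 0.39, limma, adjusted p = 0.000707), a change of 4.61-fold. It was lower by a log2 change of -1.21 in SCC25 against OKF6 (SE 0.39, limma, adjusted p = 0.0375). Among all genes, 23.4% were called lower in SCC15 than in OKF6 and 11.3% in SCC25, and 25.5% and 18.1% were lower without overlap between the libraries, so the position of YBX1 on the low side of both lines was shared by many genes. The call in SCC25 was lost when the fit held only the groups compared (adjusted p = 0.0670), without a variance trend (0.0742), and when OKF6 replicate 2 or 3 or any of the 3 SCC25 +YBX1 libraries was left out (0.0731 to 0.127). Without the first OKF6 library the log2 changes were -2.71 in SCC15 and -1.71 in SCC25, with limma adjusted p of 8.38e-06 and 0.000483.

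Between the cancer lines, YBX1 was at a log2 change of -0.999 in SCC15 against SCC25 (95% confidence interval -1.85 to -0.14), which did not pass (limma, adjusted p = 0.0581). The 3 SCC15 +YBX1 libraries nevertheless all lay below the 3 SCC25 +YBX1 libraries, as 34.1% of all genes did. A fit of these 6 libraries alone gave the same change with an adjusted p of 0.00375, in an error estimate that leaves out the OKF6 libraries. Of 10 alternative settings, 2 passed, this fit among them, and 8 did not. With each of the 6 libraries left out in turn, 0 passed. The log2 changes then ran from -1.22 to -0.78 (limma, adjusted p = 0.0521 to 0.193). Over all genes 20% were called higher and 23.6% lower in SCC15 than in SCC25.

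After induction of the YBX1 guides, the mean YBX1 level was 27.1% of that without induction in SCC25 and 22.1% in SCC15. In SCC25 –YBX1 its level was 5.26, 4.70 and 3.65 log2 CPM, from 193, 134 and 65 reads, and every library lay below the 3 SCC25 +YBX1 libraries, which held 568, 401 and 471 reads. In SCC15 –YBX1 it was 3.36, 3.71 and 3.13 log2 CPM, from 74, 81 and 58 reads against 189, 279 and 414 reads in SCC15 +YBX1. The gap between the nearest libraries of the groups was 1.04 in SCC25 and 1.40 in SCC15 on the log2 scale.

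The change on YBX1 loss was -2.01 in SCC25 (SE 0.35, 95% confidence interval -2.76 to -1.27) and -2.15 in SCC15 (SE 0.35, interval -2.90 to -1.41) on the log2 scale. Adjusted over all genes, neither passed within its line, with limma adjusted p of 0.290 in SCC25 and 0.326 in SCC15. YBX1 was nevertheless the first of 12995 genes by p in SCC15 and the second in SCC25, behind ADGRL1. Within a line 0% of genes were called by limma, in SCC25 and in SCC15 alike, and 6 genes in SCC25 without its second –YBX1 library. In these single-line comparisons 401 genes in SCC25 and 302 in SCC15 had an unadjusted limma p under 0.05, and 3.76% and 3.78% of genes were lower without overlap. YBX1 was 1 of 19 genes lower without overlap in both lines, and the 1 gene among them whose gap between the groups reached 1.04 in each line.

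Over both lines together YBX1 fell by 2.08 on the log2 scale (SE 0.24, limma, adjusted p = 0.0103), a fall of 76.4%. It was the 1 gene called, or 0.0077% of those tested (2 genes without the second SCC25 –YBX1 library), and 280 genes had an unadjusted limma p under 0.05. LSP1P4 and FLJ45513 were the 2 genes with a larger change in either direction. The exact permutation test over libraries, with the labels exchanged within each line, gave a two-sided p of 0.005, the smallest that its 400 arrangements allow. YBX1 was lower in 6 of 6 same-numbered pairs, by log2 changes between -2.96 and -1.47, and the pair numbered 3 had the lowest value in each line. The groups did not overlap in either line, so this permutation p and a fall in every pair follow from that separation. The call over both lines was lost without a variance trend (limma, adjusted p = 0.140) and when any of 6 libraries was left out, namely SCC15 +YBX1 replicates 2 and 3, SCC15 –YBX1 replicates 1 and 3, and SCC25 +YBX1 replicates 1 and 3 (0.0527 to 0.0711), while the change itself stayed between -2.26 and -1.86.

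The size of the change on YBX1 loss did not differ detectably between the lines. The difference, SCC25 minus SCC15, was 0.14 on the log2 scale with a 95% confidence interval from -0.91 to 1.19 (limma, adjusted p = 1.00), so differences of up to about that size in either direction could not be seen. For this difference 0% of genes were called, and 294 had an unadjusted limma p under 0.05. Without the third SCC25 –YBX1 library, which held the least YBX1 of its group, the difference was 0.58. What remained of YBX1 was 25.7 ± 12.9 CPM in SCC25 –YBX1 and 10.7 ± 2.22 CPM in SCC15 –YBX1 (SD, n = 3 each), or 10.7% and 4.45% of the OKF6 mean. The libraries of these groups overlapped, their difference was not tested, and the SCC25 –YBX1 libraries also overlapped with SCC15 +YBX1.

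**Figure D2:**
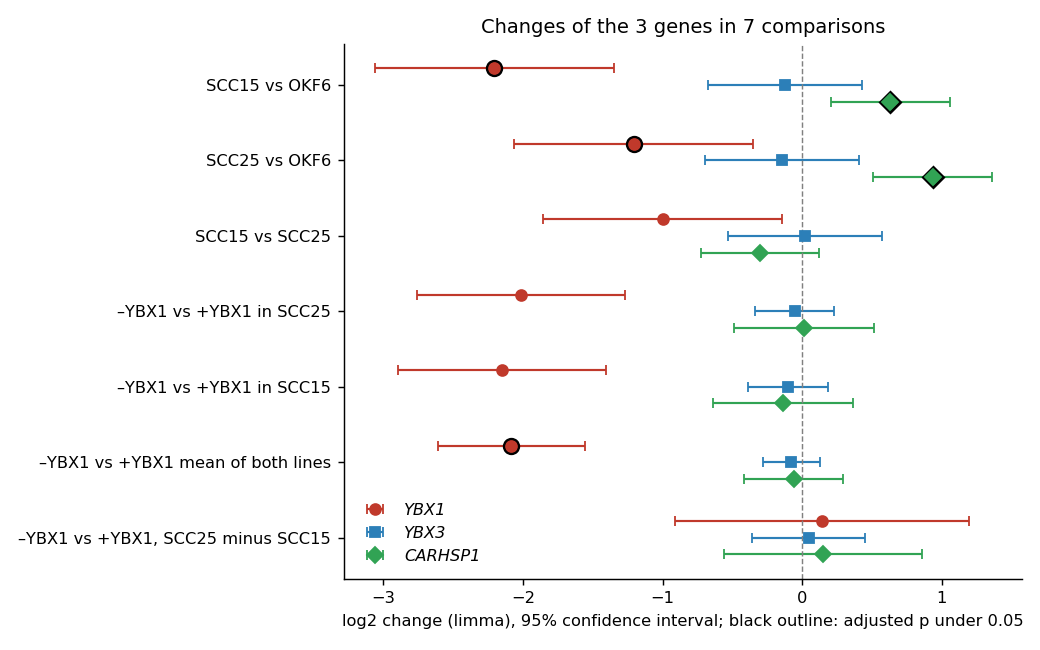
Log2 change of each gene (x axis) in 7 comparisons (y axis), as the limma estimate with its 95% confidence interval. A black outline marks an adjusted p under 0.05, reached by YBX1 in SCC15 and SCC25 against OKF6 and on YBX1 loss over both lines, and by CARHSP1 in both cancer lines against OKF6.

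**Figure D3:**
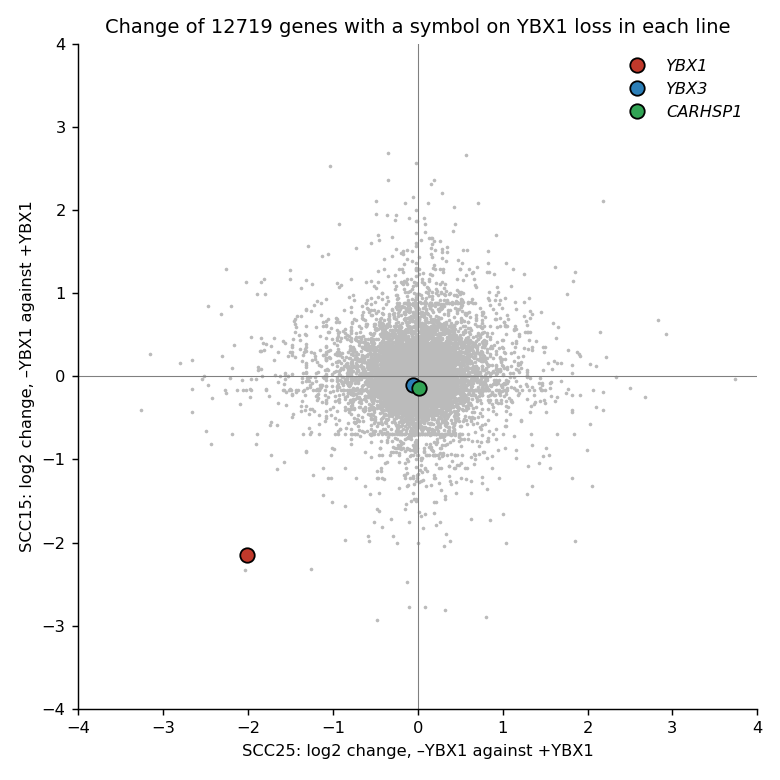
Log2 change on YBX1 loss in SCC25 (x axis) and SCC15 (y axis) for every gene with a symbol, in grey, with the 3 cold-shock domain genes marked. YBX1 lies at -2.01 and -2.15, away from the bulk of genes, and YBX3 and CARHSP1 lie near 0 in both lines.

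YBX3 was expressed in all 5 groups at overlapping levels, and no rise was detected where YBX1 was lost. In OKF6 it was at 7.54, 8.63 and 8.16 log2 CPM, in SCC15 +YBX1 at 7.90, 8.10 and 7.95, and in SCC25 +YBX1 at 7.96, 7.86 and 8.07. After induction it was at 7.85, 7.94 and 7.87 log2 CPM in SCC15 –YBX1 and at 7.77, 7.93 and 8.03 in SCC25 –YBX1. Every neighbouring pair of groups overlapped, and OKF6 had the widest spread. The read counts behind these values ran from 970 to 1756 per library, so counting error was small.

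On YBX1 loss over both lines YBX3 had a log2 change of -0.08 (95% confidence interval -0.28 to 0.12, limma, adjusted p = 1.00). The exact permutation test over libraries gave p = 0.215 (two-sided, 400 arrangements), and YBX3 was lower in 5 of 6 same-numbered pairs. The 95% confidence interval for the mean of both lines ended at a rise of 0.12 in the log2 level of YBX3, which does not bound a single line. Within the lines the log2 changes were -0.05 in SCC25 and -0.10 in SCC15, with intervals that reached up to 0.23 and 0.19. Against OKF6, YBX3 had log2 changes of -0.13 in SCC15 and -0.14 in SCC25 (limma, adjusted p = 0.700 and 0.695), and between the cancer lines the value was 0.02, with an interval from -0.53 to 0.57. Without the first OKF6 library, in which YBX3 was lowest, the changes against OKF6 were -0.41 and -0.43 with limma adjusted p of 0.0651 and 0.0714. Without the second they were 0.13 and 0.12, so the sign against OKF6 rested on single libraries.

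CARHSP1 was lowest in OKF6, where YBX1 was highest. Its level in OKF6 was 5.78, 5.70 and 5.39 log2 CPM, from 230 to 287 reads. In SCC15 +YBX1 it was 6.11, 6.31 and 6.35 log2 CPM, and in SCC25 +YBX1 6.73, 6.61 and 6.33. All libraries of both cancer lines lay above those of OKF6, and the cancer lines overlapped with each other.

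CARHSP1 rose in SCC25 against OKF6 by 0.93 on the log2 scale (SE 0.19, limma, adjusted p = 0.00453), or 1.91-fold. It rose in SCC15 against OKF6 by 0.63 (SE 0.19, limma, adjusted p = 0.0179), or 1.55-fold. Over all genes 26.9% were called higher in SCC15 and 18.9% in SCC25, and 13.4% were higher without overlap in both lines, so these calls too were shared with many genes. The median log2 change of all genes was 0.10 in SCC15 and 0.13 in SCC25 against OKF6, and CARHSP1 was still called higher in both lines with library medians or quantiles set equal. The call in SCC15 was lost when OKF6 replicate 3 or SCC15 +YBX1 replicate 2 or 3 was left out (limma, adjusted p = 0.0565 to 0.0654), and the call in SCC25 was kept without any single library. PMM2, the gene on the opposite strand, had a log2 change of 0.54 in SCC25 (adjusted p = 0.0743) and -0.37 in SCC15 (adjusted p = 0.161, both limma) against OKF6, and its part in the CARHSP1 values was not tested. Between SCC15 and SCC25 the change of CARHSP1 was -0.30 (95% confidence interval -0.72 to 0.12, limma, adjusted p = 0.230).

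YBX1 loss came with no detectable change of CARHSP1. Its level was 6.15, 6.04 and 6.17 log2 CPM in SCC15 –YBX1 and 6.64, 7.12 and 5.96 in SCC25 –YBX1. The second SCC25 –YBX1 library was the highest of all 15 and the third was the lowest of the SCC25 libraries. Over both lines the log2 change was -0.06 (95% confidence interval -0.41 to 0.29, limma, adjusted p = 1.00), with p = 0.745 in the exact permutation test, and 4 of 6 same-numbered pairs were lower. In SCC15 the change was -0.14. In SCC25 it was 0.01, and -0.26 without the second –YBX1 library.

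Genes whose level followed these members most closely were sought by Pearson correlation of log2 CPM over all 15 libraries, among genes above the median expression. These are descriptions across libraries that share group differences and, for YBX1, the induced loss. For YBX1 they included CHMP2B (0.86), SLC35E1 (0.85), ATAD1 (0.84) and MKNK2 (0.84). For YBX3 they were PTMA (0.94), PABPC4 (0.86), PUF60 (0.85), NDST1 (0.85) and SON (0.84). PTMA, which encodes prothymosin alpha, has many processed copies in the genome, and its reads may be shared with them. For CARHSP1 they were BLVRB (0.93), LY6E (0.92), VWA1 (0.90), GATAD2B (0.90) and AK1 (0.89). After subtraction of the group means, the correlation with YBX3 was 0.95 for PTMA, and that with YBX1 was 0.88 for CHMP2B and 0.45 for MKNK2. The SD of YBX3 was 0.55 log2 CPM in OKF6 and between 0.05 and 0.13 in the other groups. Its correlations within groups therefore rest largely on the 3 OKF6 libraries, the first of which stood apart. YBX1 and YBX3 themselves correlated at 0.43 over the 15 libraries, YBX1 and CARHSP1 at -0.28, and YBX3 and CARHSP1 at -0.31.

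YBX2 and LIN28B also carry a cold-shock domain and were in the tables, and LIN28A and CSDC2 were not listed in them. YBX2, the germ cell relative of YBX1, had 0 reads in every OKF6 and SCC15 +YBX1 library and 0 to 1 in SCC15 –YBX1, and 23, 25 and 20 reads in SCC25 +YBX1. Taking 3 reads per library as the floor, its mean of 4.57 CPM in SCC25 +YBX1 was at least 6.75-fold higher than in OKF6 and at least 8.36-fold higher than in SCC15 +YBX1 (limma, adjusted p = 1.28e-05 and 2.14e-06). In SCC25 –YBX1 it had 27, 53 and 5 reads, which spread on both sides of the uninduced libraries.

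LIN28B, which blocks maturation of let-7 microRNAs in embryonic and some cancer cells, was the mirror image between the cancer lines. It had 0 reads in OKF6, 40, 64 and 53 in SCC15 +YBX1, and 0, 1 and 2 in SCC25 +YBX1. Its mean of 8.83 CPM in SCC15 +YBX1 was at least 13.1-fold higher than in OKF6 and at least 14.2-fold higher than in SCC25 +YBX1 (limma, adjusted p = 1.01e-05 and 7.35e-05). In SCC15 –YBX1 it had 56, 65 and 68 reads, overlapping with SCC15 +YBX1. Of the pieces of its 3′ end, 26.7% mapped as well elsewhere in the genome, so its reads are less certain than those of the other genes.

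YBX2 and LIN28B were not called on YBX1 loss in either line, where 0% of all genes were called.

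**Figure D4:**
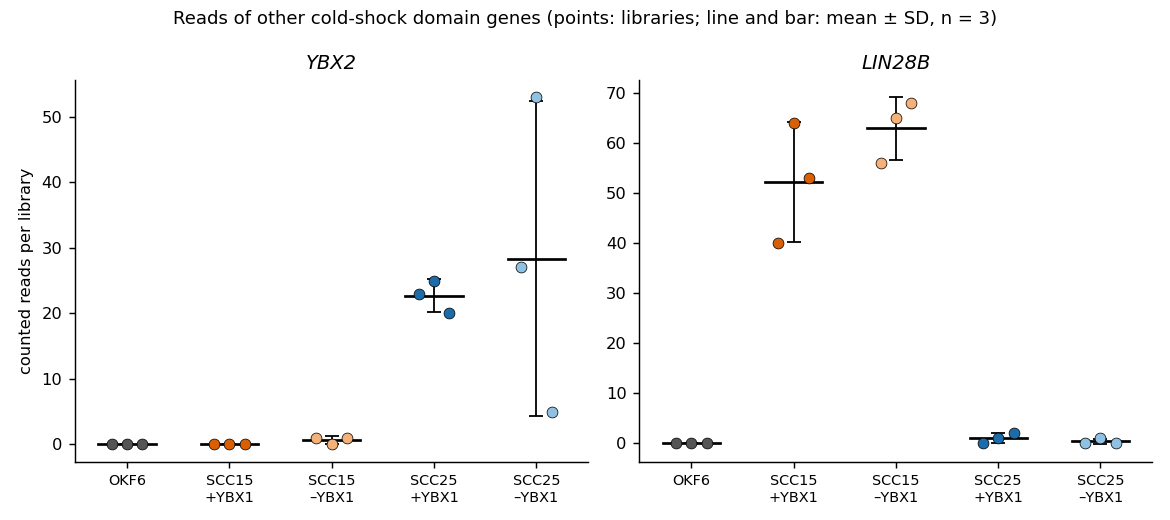
Counted reads per library (y axis) of YBX2 and LIN28B in the 5 groups (x axis), with 1 point per library and the mean ± SD of 3 libraries. YBX2 has 5 to 53 reads in the SCC25 libraries and at most 1 elsewhere, and LIN28B has 40 to 68 reads in the SCC15 libraries and at most 2 elsewhere.

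Proteins that share messenger ribonucleoprotein particles or stress granules with YBX1 form a list of 25 genes. On YBX1 loss 0 of the 25 were called in either line or over both (limma, adjusted), beside 0% of all genes within a line and 0.0077% over both. Over both lines 22 of the 25 had a value below 0, with a median log2 change of -0.12 against -0.01 over all genes. Without the second SCC25 –YBX1 library 17 of the 25 did, with a median of -0.0435 against -0.0164, and without the first SCC15 –YBX1 library 21 did, with a median of -0.0781 against -0.00868. The share of all genes below 0 was not counted, and the shift of the list was not tested. DDX6, an RNA helicase of processing bodies, had a value of -0.41 over both lines (SE 0.12, limma, adjusted p = 1.00), and -0.38 and -0.33 without those libraries. IGF2BP1, an oncofetal RNA-binding protein, had a value of -0.42, which was -0.20 without the second SCC25 –YBX1 library. G3BP1, the core scaffold of stress granules, had a value of -0.26 with a standard error of 0.25, and -0.0209 without the first SCC15 –YBX1 library. Replicate 1 was the lowest for G3BP1 in both SCC15 groups, at 6.48 log2 CPM in SCC15 +YBX1 and 5.94 in SCC15 –YBX1. Leaving out that –YBX1 library alone therefore removed the low library from only 1 side of the comparison.

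Between the cancer lines 7 of the 25 were called higher and 3 lower in SCC15 than in SCC25, beside 20% and 23.6% of all genes. FMR1, the fragile X RNA-binding protein, was higher in SCC15 by 1.14 (limma, adjusted p = 0.00477), and IGF2BP2, a reader of modified messenger RNA, was lower, with a log2 change of -1.63 (adjusted p = 0.000527). IGF2BP1, a relative of IGF2BP2, had 2, 0 and 6 reads in OKF6, between 2246 and 2640 in SCC15 +YBX1 and between 227 and 284 in SCC25 +YBX1. Against OKF6, 5 of 25 were called higher and 3 lower in SCC15, beside 26.9% and 23.4% of all genes. In SCC25, 3 were called higher and 4 lower, beside 18.9% and 11.3%.

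Of 8 AKT, RSK and S6 kinase genes, members of the families that phosphorylate YBX1, 2 were called higher and 2 lower in SCC15 than in SCC25, where 20% and 23.6% of all genes were. On YBX1 loss 0 of the 8 were called, as 0% of all genes within a line. RPS6KA1, which encodes an RSK kinase, was lower in SCC15 than in SCC25, with a log2 change of -2.02 (limma, adjusted p = 0.000252). Against OKF6, 2 of the 8 were called higher and 3 lower in SCC15, beside 26.9% and 23.4% of all genes. In SCC25, 2 were called higher and 2 lower, beside 18.9% and 11.3%. AKT1 was higher than in OKF6 by 0.94 in SCC15 and by 1.54 in SCC25 (limma, adjusted p = 0.00559 and 0.000718). Of the 2 genes listed for turnover of the YBX1 protein, FBXO33, part of a ubiquitin ligase, was higher in SCC15 than in SCC25 by 1.80 (limma, adjusted p = 0.00385). Against OKF6, FBXO33 was called lower in SCC25, with a log2 change of -1.33, and was not called in SCC15, at 0.46. RBBP6 was not called in any comparison.

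Of 19 genes described elsewhere as targets of YBX1, 0 were called on YBX1 loss in either line or over both. Of all genes, 0% were called within a line and 0.0077% over both, so this count does not set the targets apart. Their median log2 change over both lines was -0.06. Between the cancer lines 3 were called higher and 7 lower in SCC15 than in SCC25, beside 20% and 23.6% of all genes. EGFR, the epidermal growth factor receptor, was at 8.10, 4.64 and 5.93 CPM in SCC15 +YBX1 and at 115, 123 and 103 CPM in SCC25 +YBX1 (limma, adjusted p = 1.79e-05). In OKF6 it was at 64.1, 203 and 55.9 CPM. On YBX1 loss EGFR had log2 changes of 0.09 in SCC25 and 0.37 in SCC15, within a standard error of 0.41 in each. Without the first SCC15 –YBX1 library the value in SCC15 was -0.18. EGFR was at 16.9, 5.23 and 5.46 CPM in SCC15 –YBX1, so replicate 1 was the highest in both SCC15 groups. Leaving out that –YBX1 library alone removed the high library from only 1 side, so the sign without it is not informative.

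**Figure D5:**
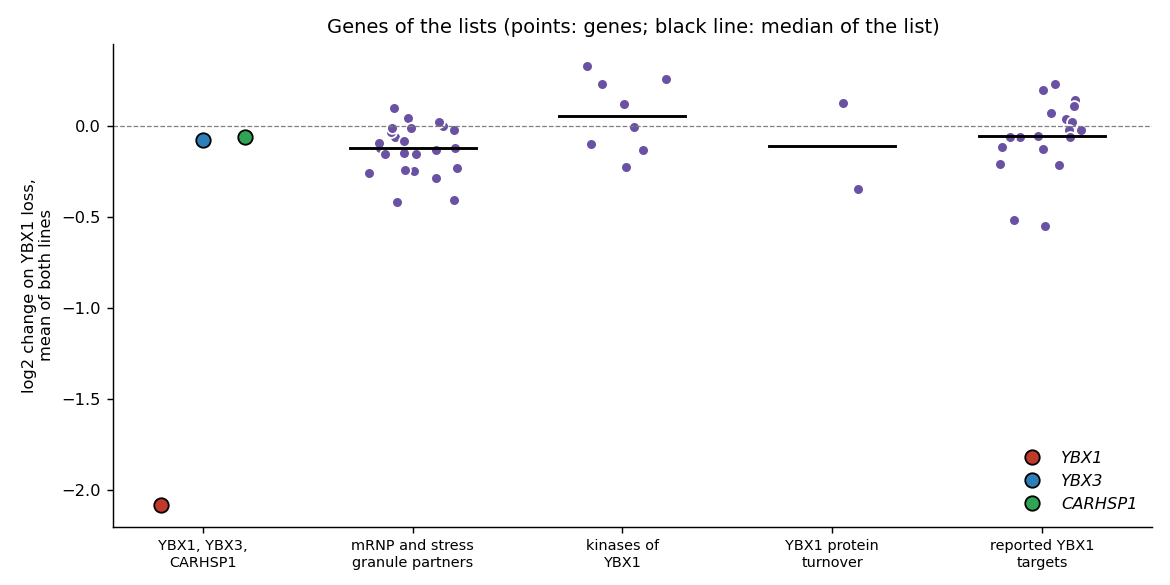
Log2 change on YBX1 loss as the mean of both lines (y axis) for YBX1, YBX3 and CARHSP1 and for each gene of 4 lists (x axis), with a black line at each list's median. YBX1 lies at -2.08, and the genes of the lists lie between -0.55 and 0.33.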

How the data were processed

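The authors made 3′ end RNA libraries, trimmed the reads (cutadapt), aligned them (HISAT2, hg38) and counted them per gene (featureCounts). They deposited 2 tables of log2 CPM values, in which 0.5 was added to each read count before scaling by the normalised library size, for 9 libraries of the lines and 12 of the YBX1 comparison, of which 6 are shared and differ by at most 5e-08. The filter on genes was theirs. Whole reads were recovered for 100% of values (tolerance 0.02 reads) by taking the lowest value of a library as 0 reads. Read depth covers counting error only.

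Groups were compared in limma 3.58.1 (R 4.3.3; lmFit, eBayes with a variance trend) on the deposited log2 values, with all groups of a table in the fit, two-sided, with Benjamini-Hochberg adjustment over 12995 genes and a threshold of 0.05. The fits were run on libraries simulated with the same dispersion for every gene, which does not check them at the spread of the deposited libraries. The cell line and YBX1 tables hold the same +YBX1 libraries, so these comparisons share samples. Deviations from the group means were correlated between the –YBX1 and +YBX1 libraries of 1 number in all 3 pairs of each line (r = 0.498, 0.312 and 0.117 in SCC15 and 0.135, 0.470 and 0.425 in SCC25, over 6497 genes). In SCC15, however, +YBX1 replicates 2 and 3 correlated more highly with a –YBX1 library of another number (0.345 and 0.175). Pairing by number is thus uncertain there. For YBX1 loss the replicate numbers of the labels were taken as pairs only in an alternative fit. The members and gene lists were chosen with earlier results of these data known. The text names the 3 members, the 5 genes most like each, and listed genes as examples, chosen after their values were seen; some results withheld for evaluation are not reported here. Alternatives were the replicate block, the groups compared alone, all 15 libraries together, equal medians or quantiles, no variance trend, robust empirical Bayes, a filter at the 25th percentile of expression, voom on recovered reads, a pseudocount of 2 reads, and each library left out. Ends were mapped with minimap2 2.31.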

Additional observations from a re-analysis of the deposited data

How the results depend on the processing

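With the replicate block, YBX1 loss over both lines gave a log2 change of -2.08 with limma adjusted p = 0.0206, and the block changed no other call for these genes except that YBX1 in SCC15 against SCC25, at -0.999, passed with adjusted p = 0.0358. The numbers do not pair the libraries of different lines. With the signs of the 6 same-numbered pairs flipped, the exact permutation p for YBX1 was 0.0312, the smallest that 64 arrangements allow. Since the groups did not overlap in either line, any pairing gives this value, so it is no separate check. Fitting only the groups compared, YBX1 was at -1.21 in SCC25 against OKF6 (adjusted p = 0.0670) and at -0.999 in SCC15 against SCC25 (0.00375). Without a variance trend, YBX1 was at -1.21 in SCC25 against OKF6 (0.0742) and at -2.08 on YBX1 loss over both lines (0.140), where 0 genes were then called. YBX3 turned to 0.0386 in SCC15 against OKF6 with library medians set equal and to -0.00857 for the difference in loss between the lines with quantiles set equal, both not called. The causes were not tested. Of the 5 genes most like each member, 2 for YBX1, 1 for YBX3 and 0 for CARHSP1 were also among the 5 most alike over the 9 libraries of the cell line table.

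With each library left out in turn, YBX1 ranged from -1.71 to -0.90 in SCC25 against OKF6, from -2.26 to -1.86 on loss over both lines and from -0.22 to 0.58 for the difference between the lines. CARHSP1 ranged from 0.52 to 0.71 in SCC15 against OKF6, and on YBX1 loss from -0.26 to 0.32 in SCC25, from -0.197 to 0.0920 over both lines and from -0.12 to 0.46 for the difference. YBX3 ranged from -0.41 to 0.13 in SCC15 and from -0.43 to 0.12 in SCC25 against OKF6, from -0.0404 to 0.0732 between the cancer lines, and on YBX1 loss from -0.116 to 0.0150 in SCC25 and from -0.0159 to 0.115 for the difference. The genes called on YBX1 loss numbered 0 to 6 in SCC25, the 6 without the second –YBX1 library, and 0 to 2 over both lines. Depth limits YBX2 and LIN28B, with at most 53 and 68 reads in a library. For listed genes, leaving out the second SCC25 –YBX1 and the first SCC15 –YBX1 library was a choice made after seeing the data. Without the first SCC15 –YBX1 library EGFR turned from 0.372 to -0.182 on YBX1 loss in SCC15. Replicate 1 was the highest for EGFR in both SCC15 groups, and only the –YBX1 library was left out.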
